A study of Arabidopsis thaliana with 27 samples.

Results

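Cutin is the polyester of the plant cuticle, and 10 Arabidopsis loci that encode enzymes and carriers of its synthesis were followed through seed development under heat: LACS2 (AT1G49430), CYP86A2 (AT4G00360), CYP86A4 (AT1G01600), CYP86A8 (AT2G45970), GPAT4 (AT1G01610), GPAT6 (AT2G38110), GPAT8 (AT4G00400), DCR (AT5G23940, PEL3 in the annotation), BDG (AT1G64670, BDG1) and LTPG1 (AT1G27950). The loci were picked by identifier, with earlier results of these data known, out of 27587 loci in the deposited table, and the transcripts of each locus were summed. RNA was sequenced from whole seeds of the accession Col-0 holding embryos of the heart, bent and mature stages. Plants moved at first flowering to a mean of 27 °C (28 °C by day, 26 °C by night, severe stress) or 25 °C (26 °C and 24 °C, mild stress) were compared with control plants at 23 °C (24 °C and 22 °C). By the methods of the study the stressed plants changed growth chamber, while control plants stayed at 23 °C. Temperature thus cannot be told apart from the chamber or the move. Stage and temperature together gave 9 groups of 3 replicate libraries, 27 in all. A whole seed contains seed coat, endosperm and embryo of 1 genotype, so no value belongs to 1 of these tissues. The study calls its RNA samples biological replicates without saying whether each came from separate plants, so p-values measure the spread between these samples.

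Cutin monomers are made inside epidermal cells and polymerised outside them. LACS2, a long-chain acyl-CoA synthetase, activates fatty acids. Cytochrome P450 enzymes of the CYP86A family put a hydroxyl group on the far end of the chain, and the glycerol-3-phosphate acyltransferases GPAT4, GPAT6 and GPAT8 join the acyl chain to glycerol. DCR, an acyltransferase of the BAHD family, and BDG, an extracellular protein of the α/β-hydrolase fold family, act later in the formation of the polymer, and LTPG1, a lipid transfer protein anchored to the plasma membrane, takes part in the export of cuticular lipids. Mutants of several of these genes have leaky or fused surfaces, and the embryo, the endosperm and the seed coat each carry a cuticle.

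The members lie at separate places in the genome with a pair of exceptions. In the RefSeq annotation of assembly TAIR10.1, CYP86A4 (chr1:218834-221286, forward strand) and GPAT4 (chr1:221642-224351, reverse strand) are direct neighbours that point at each other across a gap of 355 bases with 0 genes between them. CYP86A2 (chr4:160643-163023, forward strand) and GPAT8 (chr4:173953-176870, reverse strand) are 10929 bases apart with 3 genes between them. Close relatives among the members share short stretches of coding sequence, and a read that falls inside one of these can belong to either gene. The longest run that CYP86A2 (chr4:161633-161682) and CYP86A4 (chr1:219846-219895) have in common is 50 bases, and that of GPAT4 (chr1:223705-223739) and GPAT8 (chr4:176193-176227) is 35 bases, both within coding sequence. In the direction of transcription they read as follows.
CYP86A2 and CYP86A4: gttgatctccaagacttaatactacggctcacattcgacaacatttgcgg
GPAT4 and GPAT8: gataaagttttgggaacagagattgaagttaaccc
Of all windows of 31 bases in a member's transcripts, 0 to 1.58% also occurred at another locus, except for CYP86A2 with 5.58%, most of it shared with AT4G00370, a gene that overlaps it on the opposite strand. BDG (AT1G64660) and LTPG1 (AT1G27960) also have an overlapping gene on the opposite strand. BDG shared 0.438% of its windows, all with that gene, and LTPG1 shared 0. Strand use in counting is not given in the sources used here, so values are uncertain to the extent of the shared windows.

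The bases just before the transcription start are shown for 4 members, GPAT4, CYP86A8, GPAT6 and BDG. GPAT4 and CYP86A8 had levels that ran most closely together apart from 1 pair of low genes. GPAT6 was the only member called higher at 27 °C at both the bent and the mature stage by over 1.5 on the log2 scale. BDG was called lower at the heart stage, as LACS2 and DCR also were, and it is the only member with a match to the heat shock element described below. Each sequence is the window of 200 bases upstream of the annotated gene start in TAIR10.1, in the direction of transcription, and no other gene overlaps it. Capitals mark matches to a motif.
GPAT4 (chr1:224352-224551, reverse strand): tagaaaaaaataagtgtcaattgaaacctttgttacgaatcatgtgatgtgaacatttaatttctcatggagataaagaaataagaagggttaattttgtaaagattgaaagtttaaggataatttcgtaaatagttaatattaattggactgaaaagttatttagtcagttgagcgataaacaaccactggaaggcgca
CYP86A8 (chr2:18914740-18914939, reverse strand): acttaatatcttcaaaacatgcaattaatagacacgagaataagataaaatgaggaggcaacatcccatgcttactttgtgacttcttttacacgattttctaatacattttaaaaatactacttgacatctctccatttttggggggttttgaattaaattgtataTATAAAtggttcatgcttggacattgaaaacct
GPAT6 (chr2:15955753-15955952, reverse strand): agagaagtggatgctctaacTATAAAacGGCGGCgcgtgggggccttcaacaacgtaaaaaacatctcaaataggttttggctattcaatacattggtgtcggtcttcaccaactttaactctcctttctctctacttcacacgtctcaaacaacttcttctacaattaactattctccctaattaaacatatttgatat
BDG (chr1:24033675-24033874, reverse strand): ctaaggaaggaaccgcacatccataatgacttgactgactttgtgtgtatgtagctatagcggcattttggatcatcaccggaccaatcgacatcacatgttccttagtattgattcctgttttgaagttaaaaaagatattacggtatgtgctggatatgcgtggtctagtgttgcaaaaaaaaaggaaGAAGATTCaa
A set of 5 motifs was searched in the windows of 27443 genes, on both strands except the TATA box, which was read on the gene's strand. GCCGCC, the GCC box bound by factors of the ERF family, occurred upstream of GPAT6 (as GGCGGC on the strand shown) and of 1.46% of all genes. GAANNTTC, a short form of the heat shock element, occurred upstream of BDG and of 7.59% of all genes. TATAAA was found upstream of GPAT6, CYP86A2 and CYP86A8, against 28.3% of all genes. The G-box CACGTG (5.64% of all genes) and the L1 box TAAATGCA or TAAATGTA (3.48%), known from epidermal genes, had no match in these windows of the members. A match describes letters only.

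Depth was even, with 17227596 to 19445885 estimated counts per library. Normalised counts are estimated counts divided by the size factor of DESeq2, and they compare libraries for 1 gene but not genes of different length. Some libraries stood apart. Replicate 1 of heart seeds at 23 °C held a summed count of 4 embryo genes (LEC1, FUS3 and the storage proteins CRU3 and CRU1) of 43638, against as little as 1835 in another replicate of its group and 6484 to 9678 in the heart libraries at 27 °C. Replicate 3 of bent seeds at 23 °C had a size factor of 0.829, against 1.08 and 1.04 in the other replicates, so that its normalised counts are raised relative to its total. The 3 libraries of mature seeds at 25 °C spread widely for several members, for example 178, 103 and 23.7 normalised counts of GPAT6.

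The first question was whether the members differed between severe stress and control seeds at each stage. Heart, bent and mature seeds gave different pictures. In bent seeds 6 of the 10 members were higher at 27 °C than at 23 °C (LACS2, GPAT4, GPAT6, GPAT8, CYP86A2 and CYP86A8) and 2 were lower (DCR and LTPG1), where 15.9% of the 21445 genes tested were called higher and 21% lower (DESeq2, adjusted p under 0.05). In heart seeds 0 were higher and 3 were lower (LACS2, DCR and BDG), against backgrounds of 12.6% higher and 11.5% lower. In mature seeds 3 were higher (GPAT6, CYP86A2 and CYP86A8) and 0 lower, against 14.7% and 15.4%. The median log2 fold change of the 10 members was -0.63 for heart, 1.05 for bent and 0.47 for mature seeds, beside medians of -0.01, -0.02 and 0.00 over all genes. In whole seeds fewer cells of a type and less RNA per cell cannot be told apart. The heart count depended on the libraries in the fit: with the 6 heart libraries alone it was 6 lower (GPAT4, CYP86A2 and LTPG1 added). It was 5 without the first heart replicate at 23 °C, without the first mature replicate at 25 °C or without the third bent replicate at 23 °C. Without that bent library, 5 members were higher in bent seeds. The shares of all genes above belong to the fit of all 27 libraries, and no matching share is given for these other fits.

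**Figure D1:**
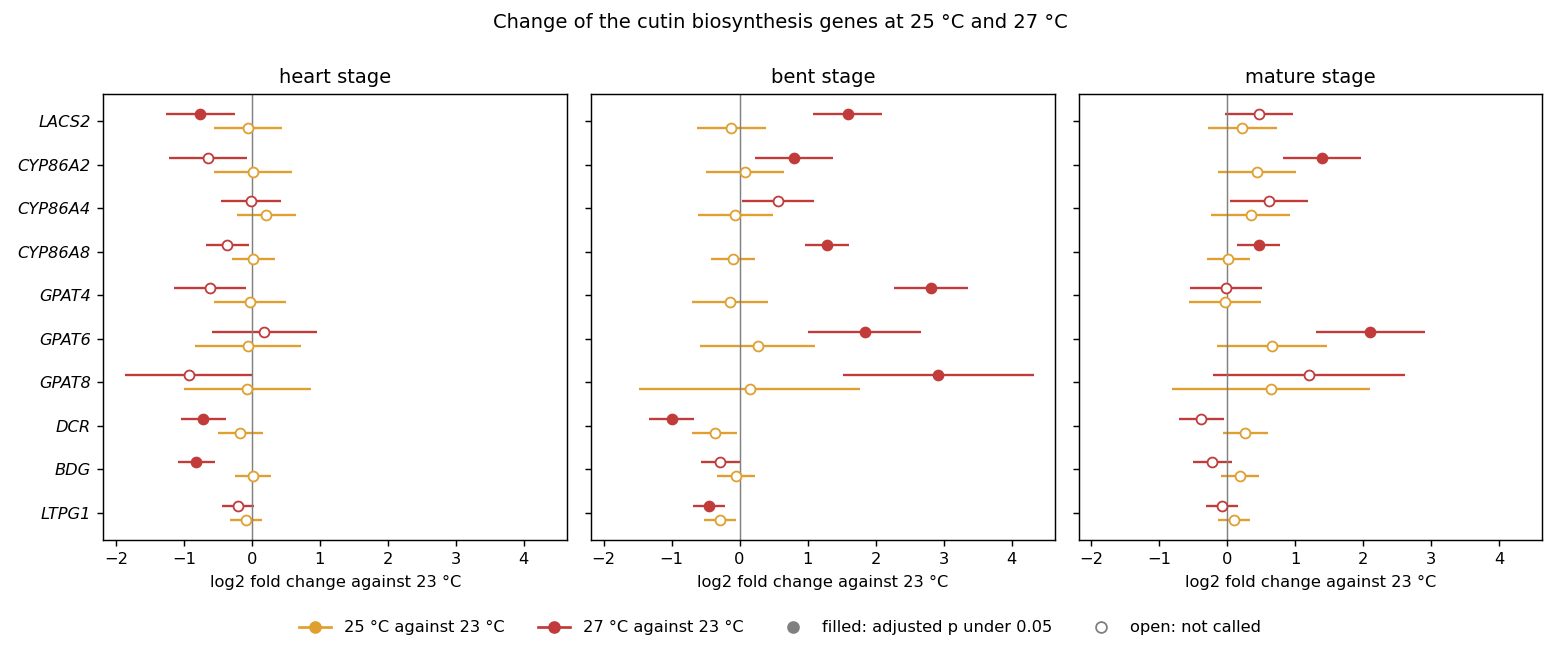
Log2 fold change of each cutin gene at 25 °C and at 27 °C against 23 °C (x axis) in heart, bent and mature seeds, with bars for the 95% interval of each estimate (DESeq2, 3 libraries per group). Filled points have an adjusted p under 0.05: at 27 °C these are 3 genes below 0 in heart seeds, 6 above and 2 below 0 in bent seeds and 3 above 0 in mature seeds, and at 25 °C there are 0.

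LACS2, the activating enzyme, fell in heart seeds and rose in bent seeds. In heart seeds it had 1212, 1034 and 1102 normalised counts at 27 °C, against 1713, 2194 and 1775 at 23 °C. In bent seeds it had 3723, 2289 and 3615 at 27 °C, against 1022, 1104 and 1073 at 23 °C. The groups did not overlap at either stage. The changes were -0.76 on the log2 scale in heart seeds (SE 0.26, DESeq2 adjusted p = 0.0176) and 1.59 in bent seeds (SE 0.26, adjusted p = 2.24e-08). The bent level was 3.01-fold. In mature seeds LACS2 had 3914, 5568 and 5156 normalised counts at 27 °C, against 3589, 3467 and 3523 at 23 °C, and the change of 0.47 was not called (adjusted p = 0.162). The heart call was lost without replicate 2 at 23 °C (-0.64, adjusted p = 0.114), without replicate 2 or 3 at 27 °C (adjusted p = 0.0802 and 0.0563) and with library totals as the scale (-0.68, adjusted p = 0.0531). The mature change was called without replicate 1 of mature seeds at 25 °C (adjusted p = 0.0191) and in the fit of the 6 mature libraries compared (0.000129), which gave 4 higher members in place of 3.

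Of the CYP86A hydroxylases, CYP86A2 and CYP86A8 rose at 27 °C in bent and mature seeds, and CYP86A4 was not called at either stage. CYP86A8, whose loss in Arabidopsis causes fused organs (it is also called LACERATA), had 1120.3, 751 and 1045 normalised counts in bent seeds at 27 °C, against 424, 425 and 343 at 23 °C. Every library at 27 °C was above every library at 23 °C, and the change was 1.29 on the log2 scale (SE 0.16, DESeq2 adjusted p = 2.20e-13). In mature seeds it had 1572, 1611 and 1432 at 27 °C, against 899, 1228 and 1221 at 23 °C, a smaller rise without overlap (log2 fold change 0.46, SE 0.16, adjusted p = 0.0161). That mature call was lost without replicate 1 at 23 °C (0.33, adjusted p = 0.145) and without replicate 1 or 2 at 27 °C (adjusted p = 0.0612 and 0.0692). In heart seeds it had 661 to 783 at 27 °C and 762 to 1029.8 at 23 °C, which overlap (log2 fold change -0.36, adjusted p = 0.082). The heart change was called once heart replicate 1 at 23 °C was removed (-0.47, adjusted p = 0.0282) or bent replicate 2 at 27 °C was (adjusted p = 0.0491).

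CYP86A2, the most abundant of the 3 hydroxylases in these seeds, had 3180.4, 3909 and 4123 normalised counts in mature seeds at 27 °C, against 1528, 1174 and 1576 at 23 °C. The groups lay far apart, and the level was 2.62-fold (log2 fold change 1.39, SE 0.29, adjusted p = 3.23e-05). In bent seeds it had 3342, 2919 and 3781 at 27 °C, against 1969.7, 1841 and 1946 at 23 °C, again without overlap (log2 fold change 0.80, SE 0.29, adjusted p = 0.0206). The bent call was not kept without replicate 2 or 3 at 23 °C (adjusted p = 0.0548 and 0.0641) or without replicate 1 or 3 at 27 °C (0.0535 and 0.097). In heart seeds, where the gene was highest, it had 5675, 4964 and 5319 at 27 °C, against 7227, 8887 and 8856 at 23 °C. These groups did not overlap either, but the change of -0.65 was not called (SE 0.29, adjusted p = 0.0933). It was called without replicate 1 or 3 of mature seeds at 25 °C (adjusted p = 0.0132 and 0.0073), the libraries with the highest and lowest mature value of this gene (3318, 1717 and 771 in that group), and in the fit of heart libraries alone (8.66e-08).

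CYP86A4 was the lowest of the hydroxylases. It had 53.7, 58.0 and 69.4 normalised counts in bent seeds at 27 °C, against 43.7, 47.9 and 30.2 at 23 °C, and 45.2, 54.2 and 56.7 in mature seeds at 27 °C, against 29.9, 34.0 and 38.0 at 23 °C. The values at 27 °C were above those at 23 °C in both stages, but neither change was called (log2 fold changes 0.56 and 0.62, adjusted p = 0.0891 and 0.0963), except in bent seeds with library totals as the scale (0.71, adjusted p = 0.0428). In heart seeds it had 162 to 271 at 27 °C and 177 to 311 at 23 °C, with overlapping groups and a change of -0.01 (95% interval -0.45 to 0.42). Its convergent neighbour GPAT4 behaved otherwise.

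GPAT4 showed the clearest rise of the acyltransferases. In bent seeds it had 1731, 876 and 1596 normalised counts at 27 °C, against 285, 192 and 118 at 23 °C. The lowest library at 27 °C was above the highest at 23 °C, and the level was 7.05-fold (log2 fold change 2.82, SE 0.28, adjusted p = 9.52e-22). In mature seeds it had 1418, 2054 and 1879.7 at 27 °C, against 1585, 1984 and 1854 at 23 °C, with overlapping groups and a change of -0.02 (95% interval -0.55 to 0.51, adjusted p = 0.982). The range of bent seeds at 27 °C overlapped that of mature seeds at 23 °C, while bent seeds at 23 °C were lowest of the 3 stages. Heart seeds had 1106, 993 and 1166 at 27 °C, against 1543, 1804 and 1658 at 23 °C. The groups did not overlap, and the change of -0.62 was not called (adjusted p = 0.0826), although it was without replicate 3 of bent seeds at 23 °C (0.0414), without replicate 1 of mature seeds at 25 °C (0.0376) and in the fit of heart libraries alone (6.39e-08).

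GPAT6, which in Arabidopsis flowers makes the cutin of petals, rose at 2 stages. It had 125, 92.7 and 146 normalised counts in bent seeds at 27 °C, against 40.9, 39.3 and 20.5 at 23 °C (log2 fold change 1.84, SE 0.42, adjusted p = 0.000111). In mature seeds it had 243, 261 and 325 at 27 °C, against 67.0, 53.5 and 72.4 at 23 °C, a 4.30-fold level (log2 fold change 2.10, SE 0.41, adjusted p = 4.90e-06). Neither pair of groups overlapped, and both calls were kept in each of the 27 fits that left out 1 library. In heart seeds it had 169 to 223 at 27 °C and 149 to 242 at 23 °C, which overlap (log2 fold change 0.18, adjusted p = 0.801).

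GPAT8, which in Arabidopsis acts redundantly with GPAT4 in leaf cutin, was nearly silent after the heart stage. Its estimated counts in bent seeds were 23, 19 and 22 at 27 °C, against 3, 4 and 1 at 23 °C, sums of 64 and 8 counts. With so few counts the ratio of the pooled, size-scaled counts was 7.49 with a 95% counting interval of 3.58 to 18.1 (exact binomial, counting error only), and the fitted change was 2.92 (SE 0.72, DESeq2 adjusted p = 0.000347). The groups did not overlap. In mature seeds the estimated counts were 5, 8 and 10 at 27 °C, against 5, 4 and 1 at 23 °C, and the change was not called (adjusted p = 0.206). In heart seeds the normalised counts were 89.8, 33.8 and 106 at 27 °C, against 61.3, 212 and 164 at 23 °C, which overlap through replicate 1 at 23 °C. The heart change of -0.93 was not called (adjusted p = 0.15), but it was without that library (-1.30, adjusted p = 0.0171), the one with the raised embryo genes.

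**Figure D2:**
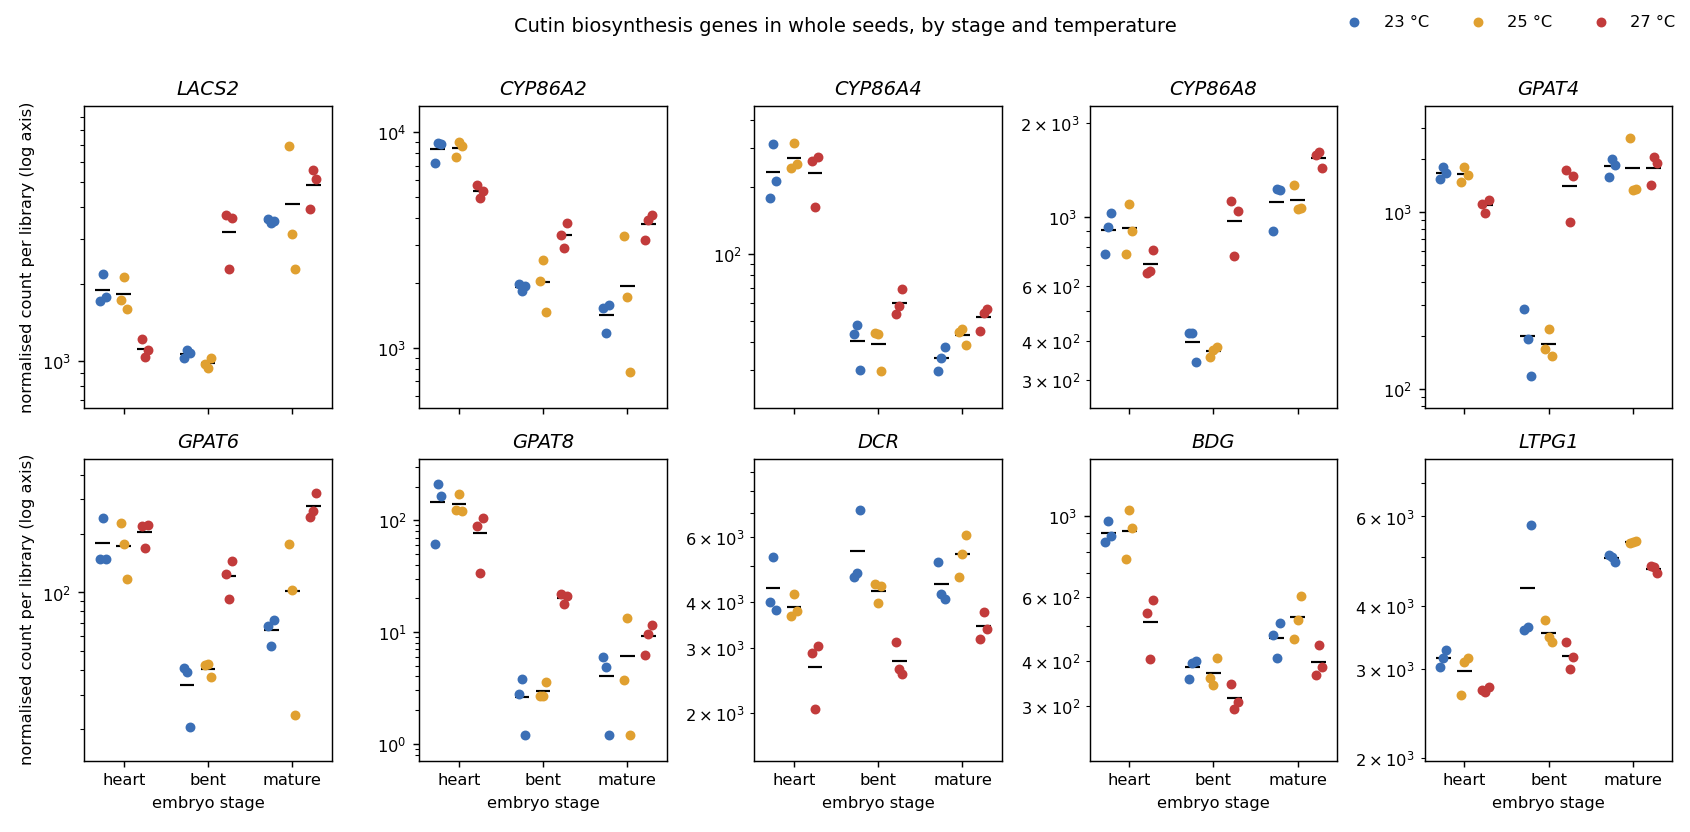
Normalised counts of each cutin gene (y axis, log scale) in the 27 libraries, by embryo stage (x axis) and temperature (colour), with 1 point per library and a bar at the mean of each group of 3. In bent seeds the points at 27 °C lie above those at 23 °C for LACS2, the CYP86A genes and the GPAT genes and below them for DCR, BDG and LTPG1.

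Of the members that act after monomer synthesis, DCR and LTPG1 fell in bent seeds, where LACS2 and the GPAT genes rose, and DCR and BDG fell in heart seeds, as LACS2 did. DCR had 3106, 2634 and 2549 normalised counts in bent seeds at 27 °C, against 4679, 4784 and 7097 at 23 °C (log2 fold change -0.998, SE 0.17, adjusted p = 7.10e-08). In heart seeds it had 2900.0, 2049 and 3037 at 27 °C, against 4011, 5306 and 3799.6 at 23 °C (log2 fold change -0.72, SE 0.17, adjusted p = 0.000278). The groups were separate at both stages, and both calls were kept in each fit that left out 1 library. In mature seeds it had 3165, 3762 and 3374 at 27 °C, against 5149, 4201 and 4082 at 23 °C, also without overlap, with a change of -0.38 that was not called (adjusted p = 0.0697) unless replicate 3 of bent seeds at 23 °C (0.0275), replicate 2 of heart seeds at 27 °C (0.046) or all heart and bent libraries and the 25 °C libraries (0.000806) were left out. In TPM, a level divided by transcript length and set to the library total, the 3 replicates of bent seeds at 23 °C had 219, 223 and 223, so that replicate 3, high in normalised counts, was not high on that scale.

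BDG, which in Arabidopsis is needed for an ordered leaf cuticle, had 542, 406 and 588 normalised counts in heart seeds at 27 °C, against 853, 969 and 885 at 23 °C. All 3 libraries at 27 °C were below those at 23 °C, at 0.567 times the level (log2 fold change -0.82, SE 0.14, adjusted p = 1.13e-07), and the call was kept in each fit that left out 1 library. In bent seeds it had 294 to 345 at 27 °C and 356 to 401 at 23 °C (log2 fold change -0.28, adjusted p = 0.114). In mature seeds it had 366 to 443 and 408 to 508, with overlap (log2 fold change -0.22, adjusted p = 0.265). LTPG1 was the steadiest member. It had 3389, 2990.5 and 3159 normalised counts in bent seeds at 27 °C, against 3583, 3629 and 5780.4 at 23 °C (log2 fold change -0.45, SE 0.12, adjusted p = 0.00132). Replicate 3 at 23 °C carried much of that difference, which was -0.19 without it (adjusted p = 0.0155), -0.23 with library totals as the scale (adjusted p = 0.00818) and not called in the fit of the 6 compared libraries (0.114). In heart seeds it had 2695 to 2759 at 27 °C and 3019 to 3266 at 23 °C, and in mature seeds 4629 to 4783 and 4883 to 5026. The values at 27 °C were just below those at 23 °C at both stages, with changes of -0.21 and -0.07 that were not called (adjusted p = 0.22 and 0.706), though the heart change was called without replicate 3 of bent seeds at 23 °C (0.00206).

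In the mean of the 3 stage effects, 7 members were higher at 27 °C (LACS2, the CYP86A genes and the GPAT genes, by 0.39 to 1.37 on the log2 scale) and 3 were lower (DCR, BDG and LTPG1, -0.70, -0.44 and -0.24). In this comparison 23.8% of all genes were called higher and 25.5% lower. The call of CYP86A4 (adjusted p = 0.0243) did not survive the removal of 1 library in 6 of 27 cases, namely replicates 1 of heart and mature seeds and 3 of bent seeds at 23 °C, replicates 1 and 3 of heart seeds at 27 °C and replicate 3 of bent seeds at 27 °C, with adjusted p between 0.0516 and 0.0629. The fall of LTPG1 was smaller without replicate 3 of bent seeds at 23 °C (-0.15) and with library totals as the scale (-0.14), and it was called in both.

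Whether the 27 °C effect differed between stages was tested with the interaction term of the same fit. From heart to bent seeds the effect was higher for 7 of 10 members, against 5.88% of all genes, and lower for 0, against 8.79%. GPAT8 (3.85 ± 0.86, estimate and SE on the log2 scale), GPAT4 (3.43 ± 0.39), LACS2 (2.35 ± 0.37), GPAT6 (1.66 ± 0.58), CYP86A8 (1.65 ± 0.23), CYP86A2 (1.45 ± 0.41) and BDG (0.54 ± 0.20) were the 7, with DESeq2 adjusted p from 4.85e-16 for GPAT4 to 0.0492 for BDG. BDG lost the call in 19 of the 27 fits with a library removed, and GPAT6 without replicate 2 of heart seeds or replicate 3 of bent seeds at 23 °C, replicate 2 of heart seeds at 27 °C, or replicate 1 or 3 of bent seeds at 27 °C (adjusted p = 0.0663 to 0.127). edgeR called neither GPAT6 nor BDG in this comparison (adjusted p = 0.055 and 0.0583). The difference was not called for CYP86A4, DCR and LTPG1 (0.57, -0.28 and -0.24).

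From bent to mature seeds the 27 °C effect was lower for 3 members, LACS2 (-1.12 ± 0.37, adjusted p = 0.041), GPAT4 (-2.84 ± 0.39, 9.57e-11) and CYP86A8 (-0.83 ± 0.23, 0.00894), against 3.28% of all genes, and higher for 0, against 2.22%. Bent seeds at 27 °C had 2289 to 3723 normalised counts of LACS2 and 751 to 1120.3 of CYP86A8, ranges that overlapped those of mature seeds at 23 °C (3467 to 3589 and 899 to 1228). Other members called higher in bent seeds lay above mature seeds at 23 °C. These were CYP86A2 (2919 to 3781 against 1174 to 1576), GPAT6 (92.7 to 146 against 53.5 to 72.4) and GPAT8 (17.8 to 22.0 against 1.19 to 5.98). For GPAT6 and CYP86A2, called at both stages, the differences were 0.27 (95% interval -0.88 to 1.41) and 0.59 (-0.23 to 1.40) and were not called. The LACS2 call failed in 11 of the 27 fits with a library removed, with edgeR (adjusted p = 0.0815) and with the replicate block (0.0511), and the CYP86A8 call without replicate 1 of bent seeds at 27 °C (adjusted p = 0.0609). From heart to mature seeds the effect was higher for 5 members, LACS2, GPAT6, CYP86A2, CYP86A8 and BDG (0.60 to 2.04), against 6.44%, and lower for 0, against 8.48%. The BDG call there was lost without replicate 2 of heart or of mature seeds at 23 °C or at 27 °C and with library totals (adjusted p = 0.0828), and GPAT8 was called without replicate 1 of heart seeds at 23 °C (2.50, adjusted p = 0.0154).

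The course of development at 23 °C set the scale for these changes. Between the heart and the bent stage 8 members fell and 1 rose, where 29.6% of all genes were called lower and 29.3% higher. GPAT8 had 2.79, 3.83 and 1.21 normalised counts in bent seeds, against 61.3, 212 and 164 in heart seeds (estimated counts 3, 4 and 1 in bent seeds), and its fall was the steepest (log2 fold change -5.76, SE 0.70, adjusted p = 1.62e-15). GPAT4 (-3.07), CYP86A4 (-2.51), GPAT6 (-2.41), CYP86A2 (-2.12), BDG (-1.23), CYP86A8 (-1.19) and LACS2 (-0.83) fell with it. LTPG1 rose by 0.46 (adjusted p = 0.000375), but by 0.20 once bent replicate 3 at 23 °C was removed and by 0.24 with library totals as the scale, and it was not called in the fit of the compared groups alone (adjusted p = 0.061). DCR, with 0.34, was not called (adjusted p = 0.0734). DCR was called without replicate 2 of heart seeds at 23 °C (0.011), replicate 1 or 2 of bent seeds at 23 °C (0.0281 and 0.0369) or replicate 2 of heart seeds at 27 °C (0.0499).

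Between the bent and the mature stage at 23 °C 3 members rose, GPAT4 (log2 fold change 3.18, SE 0.28, adjusted p = 1.80e-28), LACS2 (1.73) and CYP86A8 (1.49), and 0 fell, against 23.4% of all genes higher and 27% lower. GPAT4, LACS2 and CYP86A8 thus passed through a low point in bent seeds. GPAT8, CYP86A4 and CYP86A2 stayed low, with mature values of 1.19 to 5.98, 29.9 to 38.0 and 1174 to 1576 normalised counts. GPAT6 (0.93, adjusted p = 0.0595) was called without replicate 1 or 3 of mature seeds at 25 °C (0.0288 and 0.00839), and LTPG1 (0.20, adjusted p = 0.161) without replicate 3 of bent seeds at 23 °C (0.46, adjusted p = 4.31e-12).

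At 27 °C the bent means of these 3 members were not the lowest of the stages. Between the heart and the bent stage LACS2 (log2 fold change 1.52, SE 0.26, adjusted p = 3.68e-08) and CYP86A8 (0.46, adjusted p = 0.0111) rose, GPAT8 (-1.91), CYP86A4 (-1.94) and BDG (-0.70) fell, and GPAT4 changed by 0.36, which was not called (adjusted p = 0.288). The backgrounds were 20.7% of all genes higher and 22.2% lower. The CYP86A8 rise was lost with library totals as the scale (adjusted p = 0.0747) and without replicate 1 of heart seeds or replicate 1 or 3 of bent seeds at 27 °C (adjusted p = 0.057, 0.11 and 0.0624). CYP86A2 was just outside the threshold (-0.67, adjusted p = 0.052) and was called in 4 of the fits with a library removed, and GPAT6 and LTPG1 in 1 each. Between the bent and the mature stage at 27 °C 5 members rose, GPAT6 (1.19), CYP86A8 (0.66), LACS2 (0.60), LTPG1 (0.57) and BDG (0.33), and 0 fell, against 24.6% and 23.9% of all genes. Of these, BDG lost its call in 12 of the 27 fits with a library removed, LACS2 without replicate 2 of bent seeds or replicate 2 or 3 of mature seeds at 27 °C, and GPAT6 without replicate 2 of bent seeds at 27 °C (adjusted p = 0.0519). With library totals as the scale 4 of the 5 calls were lost, those of GPAT6 (0.83), CYP86A8 (0.29), LACS2 (0.24) and BDG (-0.04), and LTPG1 was left with 0.19. edgeR did not call LACS2 here (adjusted p = 0.0516).

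Under mild stress the number of members called was near the share of all genes called. At 25 °C against 23 °C 0 of 10 members were called in heart, bent or mature seeds, or in the mean of the stages, by DESeq2, and edgeR also called 0, where DESeq2 called 0.821%, 3.06%, 1.6% and 7.47% of all genes in either direction. The number of members with an unadjusted p under 0.05 was 2 in bent seeds and 0 at the heart and mature stages and for the mean. GPAT4, for example, had 168, 218 and 154 normalised counts in bent seeds at 25 °C, within the range at 23 °C, and a change of -0.14 with a 95% interval of -0.69 to 0.41. For LACS2 the bent change was -0.12 (interval -0.63 to 0.39) and for CYP86A8 -0.10 (-0.42 to 0.23), intervals that do not reach their changes at 27 °C. DESeq2 withheld an adjusted p from GPAT6, GPAT8, CYP86A4 and BDG in bent seeds. In mature seeds at 25 °C the replicates differed among themselves: LACS2 had 6926, 3127 and 2291 and CYP86A2 3318, 1717 and 771 normalised counts, both highest in replicate 1 and lowest in replicate 3. Without replicate 3, GPAT6 (1.12, adjusted p = 0.0381) and CYP86A2 (0.82, adjusted p = 0.0273) were called higher at 25 °C, and without replicate 1 or 2 of bent seeds at 23 °C LTPG1 was called lower there (0.0128 and 0.0123).

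Set directly against 25 °C, seeds at 27 °C had 0 members higher and 3 lower at the heart stage, 5 higher and 1 lower at the bent stage and 3 higher and 2 lower at the mature stage, where 10.8% and 8.77%, 11% and 11.8%, and 14.2% and 17.8% of all genes were called higher and lower. This comparison shares its 27 °C libraries with the one against 23 °C. In bent seeds GPAT4 (2.96), GPAT8 (2.77), LACS2 (1.71), GPAT6 (1.57) and CYP86A8 (1.38) were higher and DCR (-0.63) was lower. CYP86A2 narrowly missed the threshold (0.73, adjusted p = 0.0556), and it passed without replicate 2 of bent seeds at 25 °C or replicate 1 or 3 of mature seeds at 25 °C. In heart seeds LACS2, DCR and BDG were lower (-0.71, -0.54 and -0.83); LACS2 lost the call in 5 of the 27 fits with a library removed and DCR in 2, and edgeR and library totals also ended the LACS2 call (adjusted p = 0.0599 and 0.0819). In mature seeds GPAT6 (1.45), CYP86A2 (0.95) and CYP86A8 (0.45) were higher and DCR (-0.65) and BDG (-0.41) lower, of which CYP86A8 lost the call in 4 of these fits and BDG in 3, and LACS2 was called higher without replicate 1 of mature seeds at 25 °C (0.85, adjusted p = 5.27e-05). CYP86A2 was 1.59 without that library and 0.57 without replicate 3 of its group. In the fit of only the compared groups neither CYP86A2 nor GPAT6 was called (adjusted p = 0.223 and 0.137), and with library totals CYP86A8 was not (adjusted p = 0.0504).

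Levels of different members can be compared only per transcript length, here in TPM. LTPG1 was first in bent seeds at each temperature, with 288 to 309 TPM at 27 °C and 333 to 359.9 TPM at 23 °C. In bent seeds at 23 °C it was followed by DCR (219 to 223 TPM), CYP86A2 (53.7 to 81.0), LACS2 (26.1 to 40.0), BDG (14.4 to 20.9), CYP86A8 (7.91 to 14.6) and GPAT4 (3.77 to 13.5), and by CYP86A4, GPAT6 and GPAT8, which had at most 1.87 TPM in any library. The ranges of BDG and CYP86A8, of CYP86A8 and GPAT4, and of CYP86A4 and GPAT6 overlapped. In bent seeds at 27 °C CYP86A2 (124 to 157 TPM), DCR (120.4 to 143) and LACS2 (86.2 to 133) came next to LTPG1 in overlapping ranges, and GPAT4 (43.2 to 81.0) stood above CYP86A8 (26.8 to 38.0) and BDG (16.2 to 18.0). The spread from the highest to the lowest member thus covered 298 to 0.937 TPM on average at 27 °C and 343 to 0.113 TPM at 23 °C. In heart seeds at 23 °C CYP86A2 was the highest member, with 304 to 373 TPM, in a range that overlapped that of LTPG1 (286 to 310.4 TPM).

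**Figure D3:**
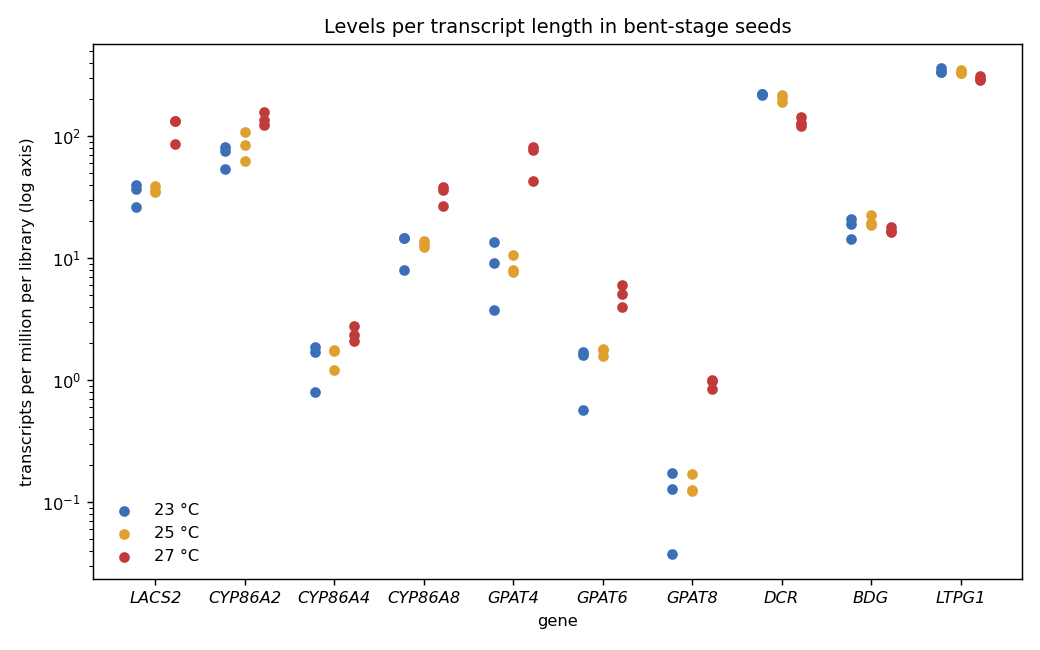
Level per transcript length of each cutin gene in bent seeds, in TPM (y axis, log scale), with 1 point per library and the temperatures of 23, 25 and 27 °C in colour. LTPG1 is highest at each temperature and GPAT8 lowest, and GPAT4 lies above BDG at 27 °C and below it at 25 °C.

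The members did not share 1 profile over the 27 libraries. As a description, with points that share stage, temperature and library, Pearson's r of log2(normalised count + 1) was highest for GPAT8 with CYP86A4 (0.945) and for GPAT4 with CYP86A8 (0.924). The first pair was highest in heart seeds and low thereafter, and the second had the low point in bent seeds at 23 °C and 25 °C. The close relatives GPAT4 and GPAT8 had r = 0.472, the neighbours CYP86A4 and GPAT4 r = 0.375, and CYP86A2 and CYP86A8 r = 0.202. Among 15776 genes with a mean normalised count of at least 100, the profile nearest to GPAT4 and also to CYP86A8 was that of AT2G43670 (r = 0.967 and 0.948). LTPG1 ran closest to FAD2, an oleate desaturase (0.966), CYP86A2 to SPS1F, a sucrose phosphate synthase (0.958), GPAT8 to PAB5, a poly(A)-binding protein (0.967), and BDG to ATP-PRT1, an enzyme of histidine synthesis (0.965). The nearest profiles of LACS2, GPAT6, CYP86A4 and DCR were those of AT1G72700, AT2G03200, AT2G44210 and AT1G73655 (r = 0.947, 0.944, 0.975 and 0.915).

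Other genes of cuticle and suberin formation, taken from lists chosen with earlier results of these data known, give the members a setting. At the 3 stages 12.6%, 15.9% and 14.7% of all genes were higher at 27 °C and 11.5%, 21% and 15.4% lower. Of 11 other cutin genes, 1 was higher and 4 were lower at 27 °C at the heart stage, and 2 were higher and 1 was lower at the bent stage and again at the mature stage, with medians of -0.26, -0.09 and 0.08. AT4G24140 stood out among them with 1101, 574 and 1173 normalised counts in bent seeds at 27 °C, against 18.6, 16.3 and 2.41 at 23 °C (log2 fold change 6.23, SE 0.71, adjusted p = 1.71e-16). ABCG32, a transporter of cutin precursors, had 1423, 1744 and 1599 in mature seeds at 27 °C, against 2996, 3049 and 2616 at 23 °C (log2 fold change -0.86, SE 0.09, adjusted p = 2.79e-18). Suberin is the related polyester of roots and inner seed coats, made by relatives of the members. All 14 suberin genes were higher in bent seeds at 27 °C (median log2 fold change 4.25), 6 were higher in heart seeds and 9 in mature seeds (medians 0.93 and 1.24), and 0 were lower at any stage. GPAT5, the suberin counterpart of the GPAT members, had 695, 380.1 and 789.5 normalised counts in bent seeds at 27 °C, against 23.2, 14.4 and 2.41 at 23 °C (log2 fold change 5.50, SE 0.48, adjusted p = 1.06e-27), and RWP1, a feruloyl transferase, 10453, 4945 and 8496 against 664, 351 and 281 (log2 fold change 4.20, SE 0.42, adjusted p = 9.78e-21). The lowest change among the 14 in bent seeds was 0.85. Replicate 2 of bent seeds at 27 °C was the lowest of its group for both named suberin genes. The same held for every member except CYP86A4 and DCR, including BDG and LTPG1, whose changes in bent seeds were below 0.

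The counts of the next 3 lists stand beside 12.6%, 15.9% and 14.7% of all genes called higher and 11.5%, 21% and 15.4% called lower at 27 °C at the 3 stages, and some of them, such as 1 of 12 wax genes in heart seeds, are near these shares. Of 9 regulators of cuticle formation, 7 could be tested (SHN1 and SHN2 were under the count filter), and 0 were higher and 3, 2 and 3 were lower in heart, bent and mature seeds at 27 °C. ATML1, an epidermal homeodomain factor that binds the L1 box, had 2711, 2745 and 2973 normalised counts in heart seeds at 27 °C, against 4009, 4006 and 4497 at 23 °C (log2 fold change -0.57, SE 0.09, adjusted p = 2.95e-09). Its relative PDF2 had 3034, 2857 and 2843 in bent seeds at 27 °C, against 3823, 4137 and 5438 at 23 °C (log2 fold change -0.62, SE 0.10, adjusted p = 5.01e-08). Of 12 wax genes, 0 were higher and 1 was lower at the heart stage, 5 were lower and 0 higher at the bent stage, and 2 were higher and 3 lower at the mature stage (medians -0.29, -0.52 and -0.16). The wax transporter ABCG12 had 3031, 3258 and 3269 in bent seeds at 27 °C, against 5107, 4219 and 6953 at 23 °C (log2 fold change -0.77, SE 0.14, adjusted p = 1.83e-06), and KCS1, which elongates very-long-chain fatty acids, 1832, 1875 and 1929 in mature seeds at 27 °C, against 997, 963 and 1072 at 23 °C (log2 fold change 0.89, SE 0.19, adjusted p = 2.94e-05). Of 8 genes of the signalling that seals the embryo cuticle, 0 were higher and 2, 3 and 3 were lower. They include ALE1, an endosperm protease, with 71.5, 146 and 126 in mature seeds at 27 °C, against 681, 371 and 389.6 at 23 °C (log2 fold change -2.07, SE 0.26, adjusted p = 2.06e-13), and AT5G01075, with 381, 344 and 345 in bent seeds at 27 °C, against 595, 642 and 952 at 23 °C (log2 fold change -1.03, SE 0.15, adjusted p = 2.21e-10).

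**Figure D4:**
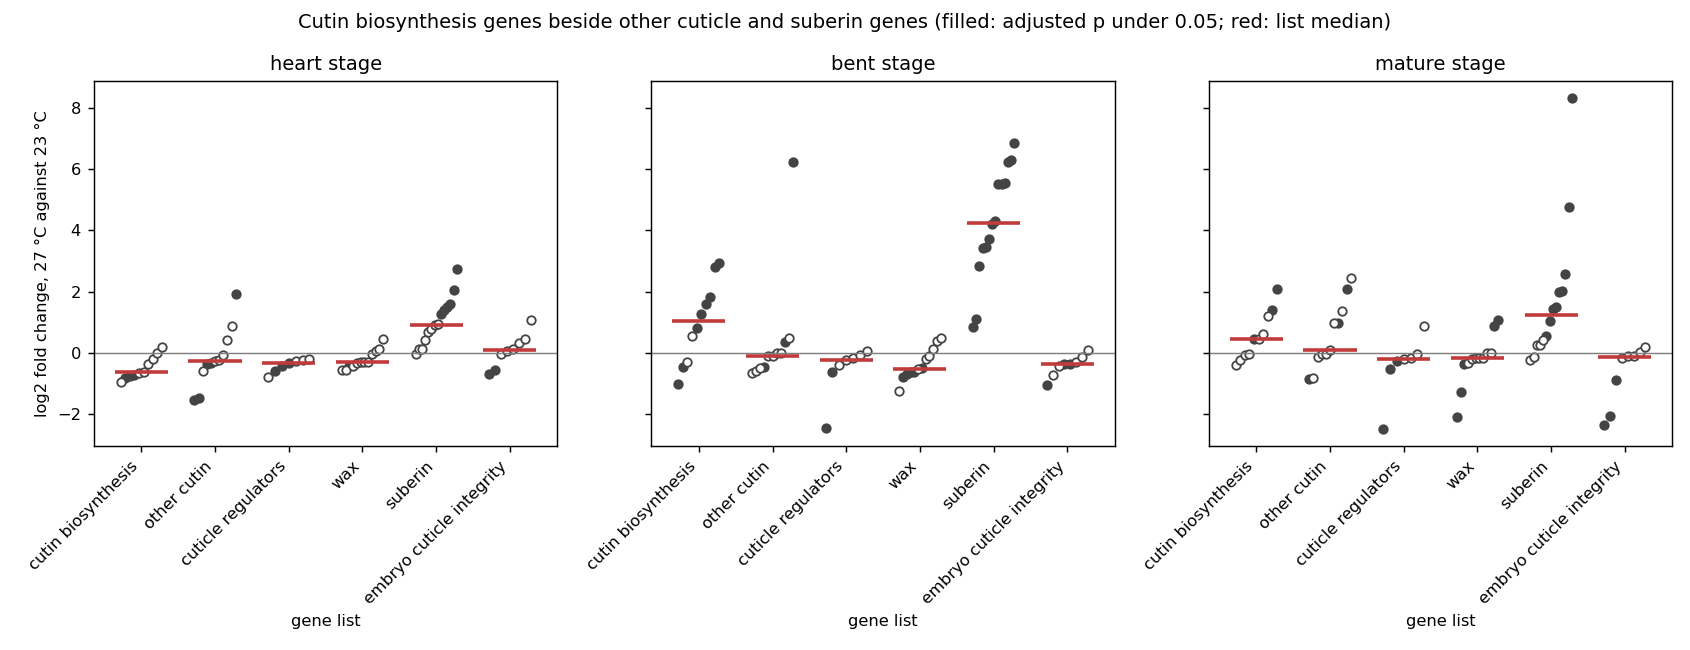
Log2 fold change at 27 °C against 23 °C (y axis) of every tested gene of 6 lists in heart, bent and mature seeds, with filled points at an adjusted p under 0.05 and a red bar at the list median. In bent seeds the median is 1.05 for the cutin biosynthesis genes and 4.25 for the suberin genes, and it is below 0 for the other 4 lists.

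Markers of tissues and of other cells also moved with temperature, and their part in the results was not tested. The summed normalised count of 3 epidermal genes (ATML1, PDF2 and PDF1) was 5075 to 5478 in heart seeds at 27 °C and 6912 to 7902 at 23 °C, 10369 to 11369 and 12567 to 19291 in bent seeds, and 15670.3 to 17468 and 18968 to 19347 in mature seeds. The sum was lower at 27 °C at each stage. ATML1 was not called in bent seeds (-0.17 on the log2 scale), nor PDF1 in mature seeds (-0.06). ATML1 and PDF2 are also among the cuticle regulators named above. The 3 guard cell genes (MYB60, FAMA and KAT1) summed to 1336 to 2107 in bent seeds at 27 °C and 293 to 465 at 23 °C, to 1217 to 1250.0 and 964 to 1106 in heart seeds and to 3086 to 3329 and 2510.4 to 2942 in mature seeds. The guard cell genes went both ways in heart seeds, MYB60 being lower (-0.89) and FAMA and KAT1 higher (1.05 and 1.70), and all 3 were higher in bent seeds. In mature seeds only KAT1 was called (1.58), with MYB60 at 0.05 and FAMA at 0.25. The 4 pollen genes (VGD1, PGA4, sks13 and AT3G01270) summed to 288 to 431 and 1170.0 to 2871 in heart seeds, 106 to 218 and 695 to 1473 in bent seeds, and 60.2 to 120.3 and 332 to 1303 in mature seeds, at 27 °C and at 23 °C. The 4 seed coat genes (BAN, GL2, TT10 and TT2) summed to 32019 to 33658 in bent seeds at 27 °C and 37838 to 65321 at 23 °C, and the 3 endosperm genes (AGL62, ZOU and ALE1) to 2198 to 2644 and 2798 to 3262. Of these seed coat genes only BAN was called in bent seeds (-0.57), with TT10, GL2 and TT2 at -0.56, -0.30 and 0.34. Of the endosperm genes 0 were called in bent seeds. In mature seeds the endosperm sum was 178 to 311 at 27 °C and 590 to 1015 at 23 °C, with ZOU and ALE1 called lower (-0.88 and -2.07), and the seed coat sum was 17475 to 18686 at 27 °C and 21396 to 28024 at 23 °C. Neither pair of mature sums overlapped, but 0 of the 4 seed coat genes were called in mature seeds. BAN and TT10 were at -0.20 and -0.53 there, and GL2 and TT2 at 0.15 and 0.41. The 4 embryo genes summed to 69902 to 136219.7 in bent seeds at 27 °C and 44956 to 56409 at 23 °C, without overlap, a difference carried by CRU3 and CRU1, with LEC1 at -0.29 and FUS3 at 0.16 on the log2 scale and 0 of the 4 genes called (an adjusted p was withheld for CRU1), and they summed to far more in mature seeds (1165958 to 1861355 and 1246222 to 1450646). In heart seeds FUS3 (1.52), TT10 (1.46) and GL2 (0.47) were called higher at 27 °C, and BAN (-0.81) and TT2 (-0.57) lower. LEC1, CRU3 and the endosperm genes were not called there, and CRU1 had no adjusted p. No marker list was at 0 in any group.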

How the data were processed

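Total RNA of whole Col-0 seeds was made into messenger RNA libraries, sequenced as short single-end reads and quantified with Salmon against annotated transcripts by the authors. The values deposited by the authors are estimated counts of 48268 transcripts in each library, neither pooled nor normalised. Salmon divides reads that fit several transcripts by an estimate. Whether the strand was used is not given in the sources used here. All 27 value columns belong to the 27 libraries, and 0 columns were left unused. The deposited lengths of transcripts served for TPM, computed here, and the library behind the deposited effective lengths is not stated.

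Counts were summed per locus, rounded to whole numbers and put into 1 DESeq2 fit of 9 groups (version 1.42.0, R 4.3.3, the tool of the study) over the 21445 genes that reached 10 counts in 3 or more libraries. Calls are Benjamini-Hochberg adjusted p under 0.05 over all genes tested, two-sided, without a fold threshold. Positions and sequences came from RefSeq assembly TAIR10.1. Python 3.11.15, pandas 2.3.3, scipy 1.17.1 and matplotlib 3.10.9 were used for summaries. Intervals of pooled counts take in the counting error alone, since no molecular identifiers were used, and depth was 17227596 to 19445885 counts per library.

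Alternatives were edgeR 4.0.16 quasi-likelihood, TMM factors, library totals, no count filter, no independent filtering, only the compared groups, the most abundant transcript per locus, the replicate number as a block and each of the 27 libraries left out. Members, gene lists, tests and alternatives were chosen with earlier results of these data known. The text names all 10 members. From each other list it names the 2 genes with the smallest adjusted p for 27 °C against 23 °C at any stage and a mean normalised count of at least 100, and for each member the genes of nearest profile under the same minimum.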

Additional observations from a re-analysis of the deposited data

Results flagged for a closer look

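The change at 27 °C against 23 °C differed between embryo stages by the interaction test (DESeq2, adjusted p under 0.05) for LACS2, GPAT4, GPAT6, GPAT8, CYP86A2, CYP86A8 and BDG. The difference of bent minus heart seeds, on the log2 scale, was 2.35 for LACS2, 3.43 for GPAT4, 1.66 for GPAT6, 3.85 for GPAT8, 1.45 for CYP86A2, 1.65 for CYP86A8 and 0.54 for BDG. The difference of mature minus bent seeds was -1.12 for LACS2, -2.84 for GPAT4 and -0.83 for CYP86A8. The difference of mature minus heart seeds was 1.23 for LACS2, 1.92 for GPAT6, 2.04 for CYP86A2, 0.83 for CYP86A8 and 0.60 for BDG. The 3 contrasts share libraries and are not independent of each other.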

How the results depend on the processing

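Of 239 member changes at 27 °C against 23 °C under 8 other settings (GPAT8 in mature seeds was under the count filter in the fit of only the compared groups, which gave no value), 226 kept their direction and side of the threshold, 2 lost and 7 gained a call, and 4 changed sign, all 4 near 0: CYP86A4 in heart seeds (0.07 with library totals, 0.00 with the most abundant transcript, 0.01 with the replicate block, and -0.18 to 0.25 over the fits without 1 library, above 0 without replicate 2 at 27 °C or at 23 °C) and GPAT4 in mature seeds (0.01 with library totals, and -0.13 to 0.12 without 1 library, above 0 without replicate 2 at 23 °C or replicate 1 at 27 °C). In fits of only the compared groups, with less shared information on the spread, members lower at 27 °C than at 23 °C numbered 6 in heart seeds and 1 each in bent and mature seeds, members at 27 °C against 25 °C 6 lower in heart and 1 higher in mature seeds, and over the stages 0 higher (bent against heart, 23 °C), 1 lower (mature against bent, 23 °C), 5 lower (bent against heart, 27 °C) and 1 lower (mature against bent, 27 °C). Library totals moved the median change of all genes in bent seeds by 0.17 (5044 genes higher and 1768 lower, beside 3412 and 4511), the 10 members keeping their bent direction, and gave 1 member lower for mature against bent seeds at 23 °C, 1 higher for bent against heart seeds at 27 °C, and 1 higher and 1 lower for mature against bent seeds at 27 °C. The most abundant transcript alone added 1 lower member in mature seeds at 27 °C (BDG). The cause of these shifts was not tested. Apart from the bent numbers with library totals, the shares of all genes called in the other settings and left-out fits are not given here. The member counts of those fits thus have no matching background.

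Counts in this section are given where they moved most relative to the main fit, and smaller moves are left out. For the bent minus heart difference, for example, GPAT6 and BDG both lost the call without replicate 2 of heart seeds at 23 °C (DESeq2 adjusted p = 0.127 and 0.136). With each library left out in turn, members lower at 27 °C than at 23 °C ranged from 2 to 5 in heart and 0 to 1 in mature seeds. For 25 °C against 23 °C the ranges were 0 to 1 lower in bent and 0 to 2 higher in mature seeds, and for 27 °C against 25 °C 1 to 4 lower in heart, 1 to 2 lower in bent and 1 to 3 lower in mature seeds. They were 1 to 2 higher for bent against heart seeds at 23 °C, 1 to 3 higher and 3 to 5 lower for bent against heart seeds at 27 °C, and 2 to 5 higher for mature against bent seeds at 27 °C. The difference of the 27 °C effect, mature minus bent, had 0 to 2 higher and 1 to 3 lower. Replicate numbers did not pair the samples (correlations of same-numbered deviations -0.421 to 0.352, with 0 of 11 comparisons over 0.1 throughout). The replicate block gave 4 members higher, in place of 3, for mature against bent seeds at 23 °C and 2 lower, in place of 3, for the mature minus bent difference. Low counts limit GPAT8 after the heart stage.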
